A study of Chlorocebus aethiops with 8 samples.

Results

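The effect of siRNAs to DHX9, the gene of RNA helicase A (RHA), on the polysome loading of mRNAs was measured in COS cells as an interaction over 8 of the 8 arrays of the series. For each gene, the loading was the log2 ratio of polysomal over cytoplasmic intensity, and the loading change was the loading under RHA siRNA minus the loading under control siRNA. Both were computed within each replicate number of the sample titles and then averaged. The arrays of replicate number 1 are called set 1 and those of number 2 set 2. A negative loading change means that an mRNA was less enriched on polysomes, relative to cytoplasm, under RHA siRNA than under control siRNA. The design had 4 groups of 2 arrays: cytoplasmic and polysomal RNA of cells given scrambled siRNAs, and the same fractions of cells given RHA siRNAs.

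COS cells are a kidney line of the African green monkey that expresses the SV40 large T antigen. Per the labels, siRNAs were used at a final 0.5 nM, and the RHA siRNAs matched the human coding region at nucleotides 2701 to 2721 and, for the second, 2784 to 2803. Cells on 7 plates of 100 mm spent 4 h in medium without serum and 24 h in medium with 10% serum. They were then split, transfected a second time 24 h later and kept for another 24 h. RNA was extracted with Trizol, and 25 ng per array was amplified and biotin-labelled. Several features limit the groups as a model: the siRNAs were designed on the human mRNA, the probes on the rhesus macaque genome, and the RNA came from another monkey. Whether a replicate was a culture of its own is not stated in the labels, and p-values may thus reflect technical spread alone.

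RHA is a DExH-box helicase that unwinds double-stranded RNA and RNA-DNA hybrids and moves between nucleus and cytoplasm. It is known to bind a structured element in the 5′ leader of certain retroviral and cellular mRNAs, JUND among them, and to promote their translation. An mRNA that is initiated often carries several ribosomes and sediments with polysomes in a sucrose gradient, while an idle mRNA stays in light fractions, so the polysomal share of an mRNA is a proxy for its translation.

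No probe set passed the test for a loading change. Among the 26383 brightest probe sets, of which 16072 have 1 gene symbol and read 10106 genes, limma with Benjamini-Hochberg adjustment called 0 (0%), with a smallest adjusted p of 1.00. At an unadjusted p under 0.05 there were 41 with lower loading (0.155%) and 5 with higher loading (0.019%). The median SE of a loading change was 0.69 in log2. The sets differed from each other in level, so the fit was repeated with the set as a further term, called the replicate block, which brought the median SE to 0.39. Limma with the block again called 0 (0%), with a smallest adjusted p of 0.967. At an unadjusted p under 0.05 it had 733 probe sets with lower loading (2.78%) and 315 with higher loading (1.19%). The excess of lower over higher rested on set 1: when the cytoplasmic control of set 1 was left out, the counts were 571 lower and 836 higher. They were 99 and 152 without the polysomal control, 373 and 377 without the cytoplasmic RHA siRNA array and 123 and 150 without the polysomal RHA siRNA array of that set. Without the corresponding arrays of set 2 they were 2513 and 535, 1131 and 202, 1219 and 361, and 791 and 191.

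The loading change of one set did not resemble that of the other. Across the 26383 probe sets, which are not independent replicates and share the 4 arrays of a set, Pearson's r between the sets was -0.07 and Spearman's rho -0.03. The sign was the same for 50.1% of probe sets. The spread was wider in set 1, with an SD of 0.83 against 0.53 in set 2. A loading at least 2-fold lower was seen for 3913 probe sets in set 1 and 554 in set 2, and for 55 (0.208%) in both. A loading at least 2-fold higher was seen for 851 and 1226, and for 35 (0.133%) in both. For 389 probe sets the sets differed from control by at least 2-fold in opposite directions, 356 of them lower in set 1 and higher in set 2. With probe sets divided into 4 classes of mean intensity, r was 0.05 in the brightest class and -0.10 in the dimmest. The SD of set 1 was 0.60 to 0.97 over the classes against 0.41 to 0.58 in set 2.

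**Figure D1:**
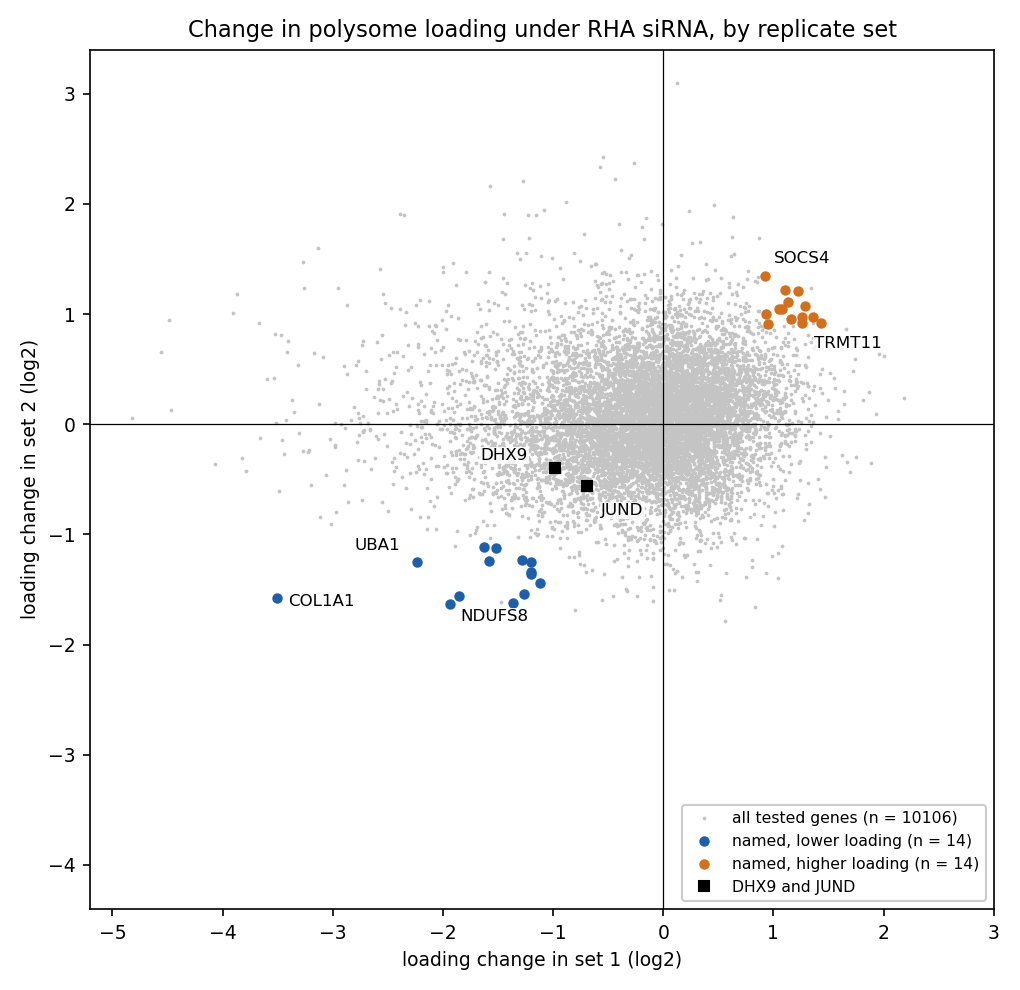
Loading change (log2) in set 1 on the x axis against set 2 on the y axis for 10106 tested genes (grey), the 14 named genes of lower loading (blue), the 14 of higher loading (orange), and DHX9 and JUND (black squares). The grey cloud is wider along the set 1 axis and shows no diagonal trend, and the named genes lie at the 2 corners where both sets have the same sign.

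Arrays of a set were more alike than arrays of a group: the correlation of an array with its partner in the other set was 0.826 to 0.861, against a median of 0.949 to 0.980 within its own set. One array, the cytoplasmic control of set 1, stood apart with 0.949, against at least 0.967 elsewhere. Spiked hybridisation controls averaged 10.5 to 11.3 (log2) on the arrays of set 1, compared with 12.1 to 12.3 for set 2. Array medians lay between intensities of 19.3 and 20.8, so only loading relative to other mRNAs was measured, and fewer polysomal mRNAs overall would not show. In bulk RNA, fewer cells expressing a gene and less RNA per cell cannot be told apart. Of the kidney tubule markers, AQP1 (856 to 2262), KRT7 (505 to 1125), EPCAM (204 to 447) and PAX8 (77.5 to 113) were well above the limit for testing, an intensity of 19.9. CDH1, UMOD, LRP2, SLC12A1, SLC34A1, CUBN and PAX2 were under it on average. Of the 14 fibroblast markers, 9 were tested, with the mesenchymal filament gene VIM at 4043 to 6345 and S100A4 at 270.3 to 917, while COL1A2, TWIST1, TWIST2, TCF21 and PRRX1 were under the limit on average. Of the 12 leukocyte markers, 4 were tested, namely CD68 (105 to 286), CORO1A (up to 124), LYZ (27.8 to 119) and CD14 (16.4 to 27.8). The other 8 were under the limit on average, among them PTPRC, the pan-leukocyte marker, at 6.70 to 12.9. The summed intensity of the 21 kidney markers on the array was 3059 to 3742 in cytoplasm and 3038 to 4091 on polysomes under control siRNA, and 3170 to 3228 and 2986 to 3242 under RHA siRNA. That of the fibroblast markers was 5671 to 5756 and 5459 to 7143 under control siRNA, and 5414 to 7048 and 5485 to 6762 under RHA siRNA. That of the leukocyte markers was 323 to 516 and 303 to 470 under control siRNA, and 367 to 371 and 320 to 445 under RHA siRNA.

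A measure of RNA integrity differed between the fractions and siRNAs of set 1. The control transcripts have separate probe sets near their 3′ and 5′ ends, and the log2 difference between them widens as RNA breaks or is copied incompletely. Averaged over ACTB, GAPDH and EEF1A1, it was 4.07 in cytoplasm and 2.54 on polysomes under control siRNA in set 1, and 2.997 and 3.71 under RHA siRNA. This is a change of 2.25 in the same double difference that defines the loading change, made of 3.26 for ACTB, 2.64 for GAPDH and 0.83 for EEF1A1. In set 2 the values were 3.80 and 4.12 under control siRNA and 3.53 and 3.77 under RHA siRNA, a change of -0.08. The part of RNA integrity in the loading changes of set 1 was not tested, and each gene below is therefore given in both sets.

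**Figure D2:**
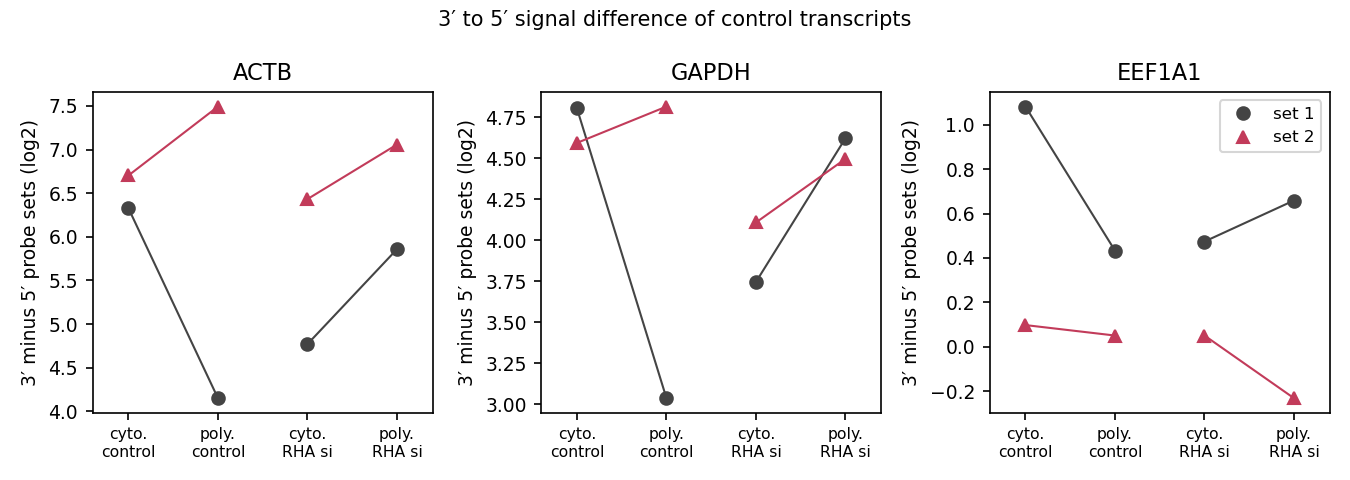
Difference between 3′ and 5′ probe sets (log2, y axis) of ACTB, GAPDH and EEF1A1 on each of the 8 arrays, with set 1 as circles, set 2 as triangles and lines joining the fractions under 1 siRNA. In set 1 the line falls from cytoplasm to polysomes under control siRNA and rises under RHA siRNA; in set 2 the lines of ACTB and GAPDH rise under both.

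The tested probe set of DHX9, the siRNA target, was lower under RHA siRNA in both fractions of both sets. DHX9 (probe set MmunewRS.268.1.S1_s_at) had intensities of 244 in cytoplasm and 359 on polysomes in set 1, and 342 and 477 in set 2, under control siRNA. They were 130.1 and 97.2, and 254 and 269, under RHA siRNA. It was thus below control in each of the 4 comparisons within a set. The loading of DHX9 was 0.56 and 0.48 under control siRNA and -0.42 and 0.08 under RHA siRNA in sets 1 and 2, so the ratios did not overlap. Its loading change was -0.98 and -0.40 in the sets, with a mean of -0.69 (SE 0.84), and did not pass in limma (adjusted p = 1.00; 0.967 with the block). In the fit without the block it was 0.04 when the polysomal RHA siRNA array of set 1 was left out. RHA siRNA polysomes were then set 2 alone, while the other groups averaged both sets, so a level difference between the sets entered the value. Set 2 by itself, which does not use that array, had -0.40. The other 3 probe sets with the symbol DHX9 were too dim to test, with mean log2 values of 4.10 to 4.32. The brightest of them lay just under the limit and had loading changes of 0.02 and 1.42 in sets 1 and 2. The others had 0.23 and -0.13, and -0.47 and -0.04.

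JUND, an AP-1 transcription factor and known translation target of RHA, also had lower loading in both sets. The intensities of JUND (probe set MmugDNA.10738.1.S1_s_at) were 42.0 in cytoplasm and 75.5 on polysomes in set 1, and 38.3 and 52.8 in set 2, under control siRNA. The corresponding RHA siRNA arrays gave 28.1 and 31.2, and 44.0 and 41.2. Under control siRNA JUND was higher on polysomes than in cytoplasm in both sets, with a loading of 0.84 and 0.46, and under RHA siRNA the fractions were nearly level, with 0.15 and -0.09. The loading change was -0.70 and -0.56, with a mean of -0.63 (SE 0.54) and an SE of 0.45 with the block. It did not pass in limma (adjusted p = 1.00), and 18.1% of all tested probe sets had both RHA siRNA ratios below both control ratios, as JUND did. Leaving out 1 array at a time from the fit without the block gave -0.95 to -0.30, so the direction did not rest on a single array.

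**Figure D3:**
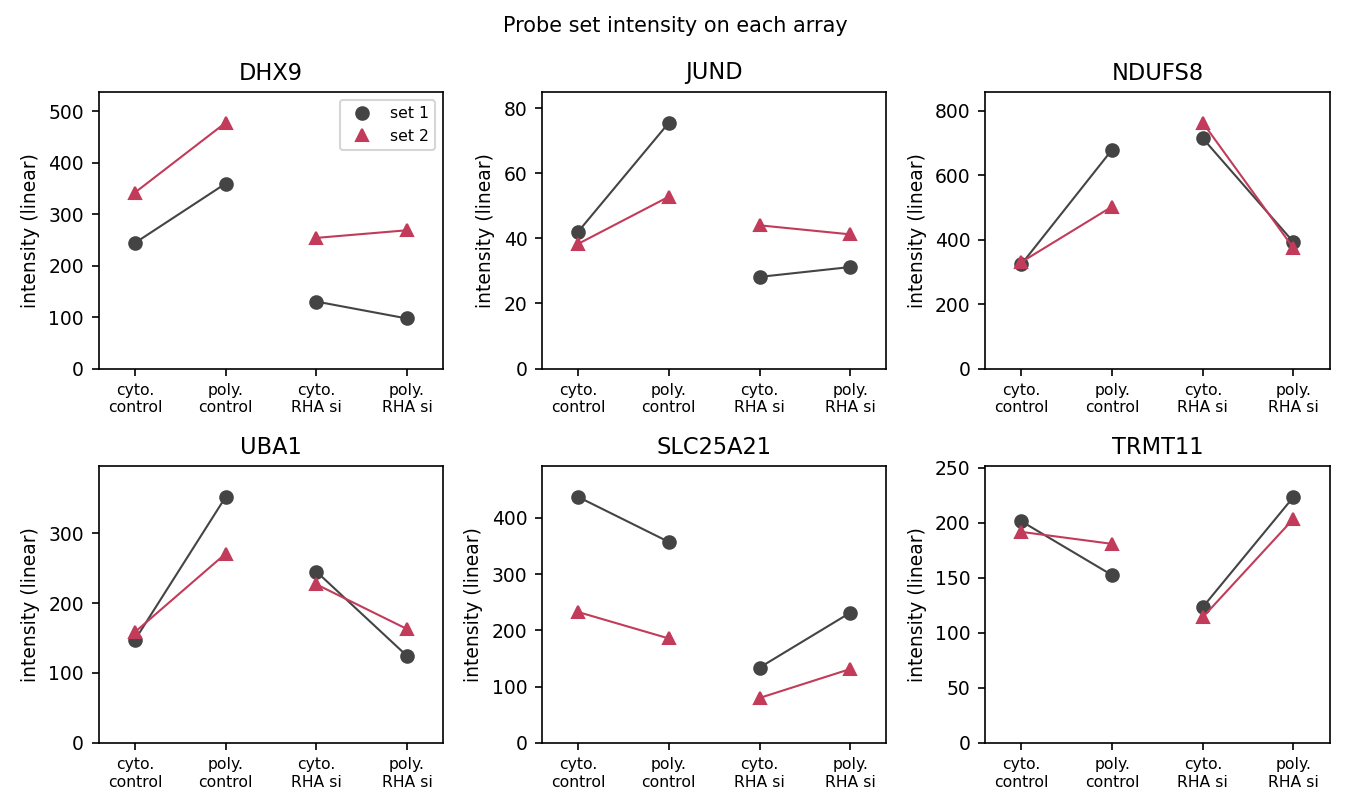
Intensity (linear, y axis from 0) of 6 genes on each array, with set 1 as circles and set 2 as triangles and lines joining cytoplasm to polysomes under 1 siRNA. For NDUFS8 and UBA1 the lines rise under control siRNA and fall under RHA siRNA in both sets, for SLC25A21 and TRMT11 the reverse holds, and for DHX9 and JUND the slope flattens or turns.

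Genes were then ranked by the smaller of their loading changes in the 2 sets, so that a gene leads the list when both sets moved it far in the same direction. The 14 leading genes of lower loading spanned loading changes from -3.50 to -1.12 in set 1, and from -1.64 to -1.11 in set 2. Since these values chose the genes, they are a description. Values of named genes with 1 array left out come from the fit without the block. A level difference between the sets enters that fit. None of the 14 passed in limma (adjusted p = 1.00 for each; 0.967 with the block). The genes just inside the choice, TMEM132A and PFN1, had smaller changes of 1.12 and 1.11 (log2).

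NDUFS8, an iron-sulfur subunit of respiratory complex I, led the list. Under control siRNA, NDUFS8 (probe set MmugDNA.42544.1.S1_s_at) read 323 in cytoplasm and 679 on polysomes in set 1, and 330.1 and 502 in set 2. Under RHA siRNA it read 714 and 392, and 762 and 373. The fractions thus changed places: polysomes were the higher fraction under control siRNA and cytoplasm under RHA siRNA, in both sets. Its loading went from 1.07 and 0.61 to -0.86 and -1.03, and the loading change was -1.78 (SE 0.44). A second, dimmer NDUFS8 probe set had changes of -2.64 and -0.58. Leaving out single arrays kept NDUFS8 between -2.001 and -1.57.

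UBA1, the enzyme that activates ubiquitin for the whole ubiquitin system, followed the same course. On the control siRNA arrays the intensity of UBA1 (probe set MmugDNA.7386.1.S1_at) was 147 in cytoplasm and 352 on polysomes in set 1, and 159 and 271 in set 2. On those of RHA siRNA it was 245 and 124, and 227 and 163. The polysomal excess of 1.26 and 0.77 under control siRNA became a deficit of -0.98 and -0.48 under RHA siRNA, a loading change of -1.74 (SE 0.46). HUWE1, a large ubiquitin ligase, went with it. HUWE1 was measured at 191 in cytoplasm and 344 on polysomes in set 1, and 233 and 285 in set 2, under control siRNA. With RHA siRNA the readings of HUWE1 were 298 and 233, and 304 and 157. Its loading change was -1.22 (SE 0.48), and the 3 further HUWE1 probe sets had means of -0.05, -0.58 and -0.39.

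HADHB, a subunit of the mitochondrial enzyme of fatty acid oxidation, had a loading change of -1.71 (SE 0.57). HADHB had intensities of 45.7 in cytoplasm and 99.6 on polysomes in set 1, and 31.8 and 54.5 in set 2, under control siRNA. They were 67.0 and 40.5, and 73.8 and 42.8, under RHA siRNA. Polysomal HADHB was the higher fraction under control siRNA and the lower one under RHA siRNA in both sets. CARS2 charges tRNA with cysteine inside mitochondria. The intensities of CARS2 (probe set MmugDNA.10427.1.S1_at) were 40.9 in cytoplasm and 67.1 on polysomes in set 1, and 32.3 and 57.9 in set 2, under control siRNA. The corresponding RHA siRNA arrays gave 56.9 and 38.4, and 46.8 and 35.6. With -1.28 and -1.23, CARS2 had nearly equal loading changes in the sets and a mean of -1.26 (SE 0.45). NDUFS8, HADHB and CARS2 each encode mitochondrial proteins made on cytosolic ribosomes.

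COL1A1, the main chain of type I collagen, had the largest mean of the 14, -2.54 (SE 1.92), with a very uneven level between sets. Under control siRNA, COL1A1 (probe set MmugDNA.26445.1.S1_at) read 56.5 in cytoplasm and 381 on polysomes in set 1, and 19.3 and 31.4 in set 2. Under RHA siRNA it read 162 and 96.4, and 44.5 and 24.3. The value of 19.3 lies under the limit for testing, and the mean was -0.74 without the polysomal control array of set 1. PFN1, which delivers actin monomers to growing filaments, was by contrast bright throughout. On the control siRNA arrays the intensity of PFN1 (probe set MmugDNA.17965.1.S1_at) was 980.4 in cytoplasm and 2249 on polysomes in set 1, and 507 and 641 in set 2. On those of RHA siRNA it was 1751 and 1302, and 1166 and 684. In set 2 polysomal PFN1 was about level between siRNAs while the cytoplasmic level was higher under RHA siRNA, and the mean loading change was -1.37 (SE 1.00), or -0.46 without the polysomal control array of set 1.

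CLIP3, a protein of microtubules and the trans-Golgi, differed from most of them in its cytoplasmic level, which was almost the same under both siRNAs. CLIP3 (probe set MmugDNA.39851.1.S1_at) was measured at 148 in cytoplasm and 310.5 on polysomes in set 1, and 143 and 233 in set 2, under control siRNA. With RHA siRNA the readings of CLIP3 were 129 and 90.0, and 140.1 and 96.5. Its loading change, -1.41 (SE 0.44), thus came from polysomal RNA. ZC3H18, which links the nuclear cap-binding complex to RNA decay, showed the opposite course. ZC3H18 (probe set MmugDNA.21365.1.S1_at) had intensities of 27.8 in cytoplasm and 62.4 on polysomes in set 1, and 19.4 and 60.4 in set 2, under control siRNA. They were 50.4 and 44.0, and 74.5 and 75.2, under RHA siRNA. The polysomal level in set 2 was higher under RHA siRNA, yet the cytoplasmic level was higher by more, which gave a loading change of -1.50 (SE 0.59).

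The remaining lower genes include ones of membrane traffic and transcription. SNX9, a sorting nexin of endocytosis, had a loading change of -1.27 (-1.20 and -1.34 in sets 1 and 2), or -0.80 without the polysomal control of set 1, and its second probe set had -2.93 and 0.30. EXOC3 of the exocyst, the complex that tethers secretory vesicles, had -1.28 (-1.20 and -1.36 in sets 1 and 2), and -0.30 when the cytoplasmic control of set 2 was left out. CIC, a transcriptional repressor downstream of receptor tyrosine kinases, had -1.32 (-1.52 and -1.13 in sets 1 and 2), and TMEM132A, a membrane protein, -1.28 (-1.12 and -1.44 in sets 1 and 2). Without the polysomal control of set 1 they were -0.69 and -0.19. The further probe sets of TMEM132A had means of -0.13 and 0.44. LOC696958, a macaque gene model, had -1.40 (-1.26 and -1.55 in sets 1 and 2), or -0.85 without the polysomal RHA siRNA array of set 2. EXOC3, CIC, TMEM132A and LOC696958 had SEs of 1.10, 0.87, 1.36 and 0.77, in that order.

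The 14 leading genes of higher loading spanned changes from 0.93 to 1.43 in set 1, and from 0.91 to 1.35 in set 2. They too were chosen by these values, and none passed in limma (adjusted p = 1.00 for each; 0.967 with the block). The last of them, KCNG3, had a smaller change of 0.91. Where the lower genes lost a polysomal excess, most of these genes went from a slight polysomal deficit to an excess: the control loading was below 0 in both sets for 11 of 14, and the RHA siRNA loading was above 0 in both sets for 14 of 14. The loading change contains both loadings, so the choice of genes favours such counts. Their share over all genes was not counted.

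TRMT11, the catalytic subunit of a tRNA methyltransferase, had the smallest SE of this group. The intensities of TRMT11 (probe set MmugDNA.11886.1.S1_at) were 201 in cytoplasm and 152 on polysomes in set 1, and 192 and 181 in set 2, under control siRNA. The corresponding RHA siRNA arrays gave 123 and 224, and 114 and 204. Its polysomal level was above control and its cytoplasmic level below control in both sets, and the loading change was 1.09 (SE 0.42). Left-out arrays kept it between 0.97 and 1.21. SOCS4, a suppressor of cytokine signalling, had the same pattern at unequal levels. Under control siRNA, SOCS4 (probe set MmugDNA.41958.1.S1_at) read 62.1 in cytoplasm and 45.2 on polysomes in set 1, and 224 and 138 in set 2. Under RHA siRNA it read 57.6 and 79.7, and 153 and 241. The loading change was 1.14 (SE 1.34), or 0.21 when the cytoplasmic control of set 2 was left out.

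SLC25A21, a mitochondrial carrier of oxodicarboxylates, had both fractions below control in both sets. On the control siRNA arrays the intensity of SLC25A21 (probe set MmuSTS.4433.1.S1_at) was 437 in cytoplasm and 357 on polysomes in set 1, and 233 and 186 in set 2. On those of RHA siRNA it was 134 and 231, and 79.7 and 131. Cytoplasmic SLC25A21 was lower by 1.71 and 1.54 in log2 and polysomal by 0.63 and 0.50, and the loading change was 1.06 (SE 0.79), or 0.59 without the polysomal control of set 2. CMTM8, a MARVEL-domain membrane protein, did likewise. CMTM8 (probe set MmugDNA.7403.1.S1_at) was measured at 155 in cytoplasm and 126 on polysomes in set 1, and 89.9 and 63.2 in set 2, under control siRNA. With RHA siRNA the readings of CMTM8 were 39.8 and 71.4, and 32.5 and 49.1. This is a loading change of 1.12 (SE 0.68), or 0.62 without the same array. RWDD3, an enhancer of sumoylation, had 0.97 (0.93 and 1.00 in sets 1 and 2) with both fractions below control in both sets. Without the cytoplasmic RHA siRNA array of set 1 it was 0.03.

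SCLT1, a protein of the distal appendages of centrioles, had a loading near 0 under control siRNA. SCLT1 (probe set MmugDNA.15.1.S1_at) had intensities of 253 in cytoplasm and 263 on polysomes in set 1, and 141 and 139 in set 2, under control siRNA. They were 120.5 and 305, and 47.5 and 98.5, under RHA siRNA. The loading change was 1.18 (SE 1.05), or 0.37 without the polysomal RHA siRNA array of set 1. TET1, which oxidises 5-methylcytosine in DNA, was the exception in cytoplasm, where set 1 did not show a lower level. The intensities of TET1 (probe set MmugDNA.24421.1.S1_at) were 26.7 in cytoplasm and 20.7 on polysomes in set 1, and 49.4 and 48.8 in set 2, under control siRNA. The corresponding RHA siRNA arrays gave 28.6 and 56.8, and 31.2 and 60.6. The change in loading was 1.17 (SE 0.72), or 0.55 without the polysomal control of set 1. KCNG3, a modifier subunit of voltage-gated potassium channels, had 0.93 (0.95 and 0.91 in sets 1 and 2) and an SE of 0.48.

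ZNF548, a KRAB-type zinc-finger gene, had nearly the same loading change in both sets, 1.11 and 1.22, at very different levels. Under control siRNA, ZNF548 (probe set MmugDNA.34263.1.S1_at) read 19.6 in cytoplasm and 13.1 on polysomes in set 1, and 109 and 61.9 in set 2. Under RHA siRNA it read 14.1 and 20.3, and 63.9 and 84.6. In set 1 its intensities lay around the limit for testing. The mean turned to -0.07 when the cytoplasmic control of set 2 was left out of the fit without the block. In that fit the cytoplasmic control was set 1 alone, while the other groups averaged both sets. CDKL1, a kinase related to the cyclin-dependent kinases, had 1.06 (1.16 and 0.96 in sets 1 and 2), and its second probe set -0.85 and 1.57. GPATCH2, a protein with a G-patch RNA-binding motif, had 1.11 (1.26 and 0.97 in sets 1 and 2). Its 3 further probe sets had means of -0.55, 0.03 and 0.96. SLC18A2, the vesicular monoamine transporter of neurons, had 1.18 (1.43 and 0.92 in sets 1 and 2), and EQTN, a protein of the sperm acrosome, 1.05 (1.06 and 1.04 in sets 1 and 2). The macaque gene model LOC700398 had 1.22 (1.23 and 1.21 in sets 1 and 2). Without the polysomal control of set 1, CDKL1 was 0.46 and SLC18A2 0.42. Without the cytoplasmic RHA siRNA array of set 2, EQTN was 0.45 and LOC700398 0.64, and GPATCH2 was 0.56 without the cytoplasmic control of set 1. Of the 28 named genes, 9 stayed within 1.5 times their mean loading change whichever array was left out of the fit without the block. They were NDUFS8, HADHB, ZC3H18, UBA1, CLIP3, CARS2, HUWE1, TRMT11 and KCNG3. Such fits favour genes of similar level in both sets, so the count does not by itself measure how stable a loading change is.

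**Figure D4:**
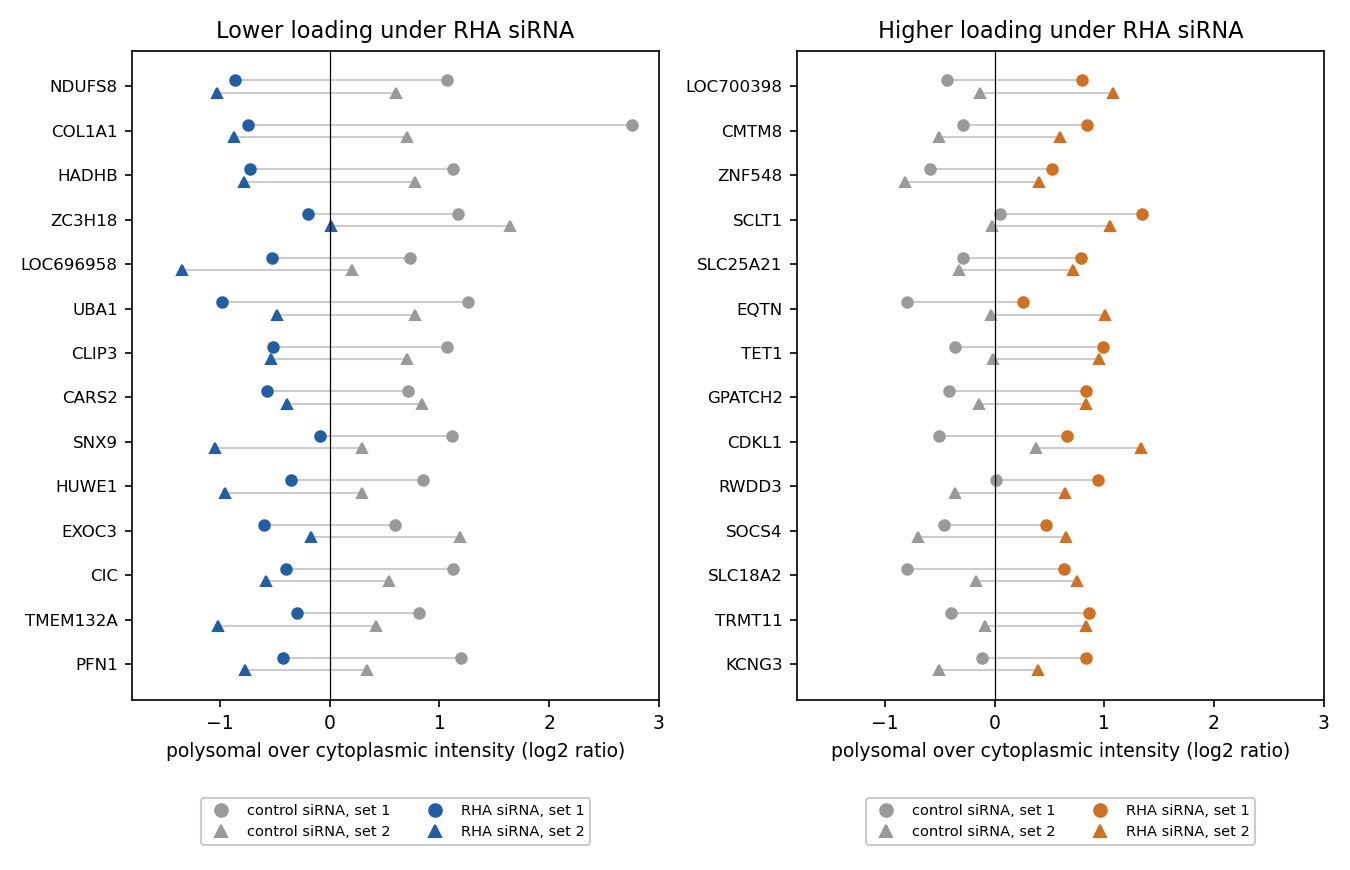
Loading (log2 ratio of polysomal over cytoplasmic intensity, x axis) of the 14 leading genes of lower loading (left) and of higher loading (right), under control siRNA (grey) and RHA siRNA (coloured), with set 1 as circles and set 2 as triangles. In the left panel the grey points lie above 0 and 13 of 14 genes have both coloured points below 0. In the right panel 14 of 14 genes have both coloured points above 0. The genes were chosen by the difference between the loadings shown, which favours such counts.

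A loading change can come from either fraction. Of the 14 lower genes, 12 had a higher cytoplasmic level under RHA siRNA in both sets and 12 a lower polysomal level, with 10 showing both. Of the 14 higher genes, 13 had a lower cytoplasmic level in both sets, but 5 had a higher polysomal level, with 4 showing both. Among the probe sets past 2-fold in both sets, the counts were alike in form. Of the 55 lower, 50 had a higher cytoplasmic level and 43 a lower polysomal level. Of the 35 higher, 33 had a lower cytoplasmic level and 15 a higher polysomal level. A single gene symbol was carried by 40 of the 55 and 15 of the 35, against 60.9% of all tested probe sets. No test was made of these counts, since the loading change itself contains both fractions.

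The loadings that make up the double difference were compared with each other. Limma called 0 probe sets (0%) for polysomal against cytoplasmic RNA under control siRNA (55 at an unadjusted p under 0.05, or 1087 with the block) and 0 (0%) under RHA siRNA (70, or 1177 with the block). Across probe sets, r between the sets was -0.04 for the control loading and 0.18 for the RHA siRNA loading. The SD of the control loading was 0.62 in set 1 against 0.33 in set 2, whereas that of the RHA siRNA loading was 0.45 and 0.42. The control arrays of set 1 thus carried the wider spread of the loading change in that set. Over all probe sets, 18.1% had both RHA siRNA ratios below both control ratios and 18.3% had both above.

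Gene lists were described by their members' loading changes beside those of all 10106 tested genes, with the brightest probe set for each gene. Over all genes the median was -0.03 (-0.08 in set 1 and 0.05 in set 2), 53.2% had a mean below 0, 28.2% were below 0 in both sets and 26.9% above 0 in both. At an unadjusted p under 0.05 in limma with the block, 3.2% of genes had lower and 0.97% higher loading. Limma called 0 members of any list at an adjusted p under 0.05, with or without the block. Of 31 lists, 27 had at least 5 tested genes. When each array in turn was left out of the fit without the block, between 5 and 10 of the 27 medians changed sign. Of the 27, 6 had the same sign in each of those fits, namely splicing factors, aminoacyl-tRNA synthetases, translation factors, oxidative phosphorylation, glycolysis and the proteasome, and the other 21 turned in at least 1. With the block, the median of translation factors turned as well, to 0.09 without the cytoplasmic control of set 1. Quantile normalization moved the median of all genes to 0.03 and median centring to 0.06.

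Splicing factors and hnRNPs, the RNA-binding proteins of pre-mRNA processing, had a median of -0.40 over 36 genes (-0.59 in set 1 and -0.22 in set 2), and -0.32 to -0.30 under both scalings. Both sets were below 0 for 16 members and above 0 for 6. U2AF1, which recognises the 3′ splice site, was the leading member. On the control siRNA arrays the intensity of U2AF1 (probe set MmugDNA.14832.1.S1_at) was 1055 in cytoplasm and 2141 on polysomes in set 1, and 1509.8 and 1884 in set 2. On those of RHA siRNA it was 2227 and 1379.8, and 4042 and 2542. This gave a loading change of -1.35 (SE 0.67), and that of SF1, the branch point binding protein, -0.90 (SE 1.04), with -0.88 and -0.92 in the sets. On the other side lay SF3B5, a small subunit of the U2 particle, at 0.58 (0.49 and 0.67 in sets 1 and 2) and SRSF10 at 0.27 (0.10 and 0.43 in sets 1 and 2). In limma with the block 10 of 36 had an unadjusted p under 0.05, all lower, a share of 27.8% against 3.2% of all genes. That count was 5 without the cytoplasmic control, 0 without the polysomal control, 3 without the cytoplasmic RHA siRNA and 1 without the polysomal RHA siRNA array of set 1, and 8 to 10 without an array of set 2. The median stayed between -0.60 and -0.32 in those fits.

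The machinery of translation was divided. Of 14 measured cytosolic aminoacyl-tRNA synthetases and their partners, which charge tRNAs with amino acids, 8 were below 0 in both sets and 3 above, and the median was -0.68 (-1.25 in set 1 and -0.19 in set 2). GARS1, the glycyl-tRNA synthetase, had -1.12 (-1.43 and -0.81 in sets 1 and 2) and FARSB, a subunit of the phenylalanyl enzyme, -0.90 (-1.25 and -0.55 in sets 1 and 2). FARSB (probe set MmugDNA.42152.1.S1_at) was measured at 372 in cytoplasm and 469 on polysomes in set 1, and 403 and 545 in set 2, under control siRNA. With RHA siRNA the readings of FARSB were 738 and 391, and 801 and 741. AIMP1, a scaffold of the multisynthetase complex, lay above 0 with 0.51 (0.59 and 0.44 in sets 1 and 2). The median of this list was -0.58 under either scaling and between -1.01 and -0.47 in fits with the block that left out 1 array.

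Ribosomal proteins had small loading changes. The median over 35 genes was -0.12 (-0.10 and -0.03), with 17 below 0 in both sets and 9 above, or 48.6% and 25.7% against 28.2% and 26.9% of all genes. RPL10A had -0.83 (-1.20 and -0.47 in sets 1 and 2) and RPL24 -0.37 (-0.38 and -0.37 in sets 1 and 2), while RPL19 had 0.22 (0.15 and 0.28 in sets 1 and 2) and RPS16 0.42 (0.26 and 0.57 in sets 1 and 2). The intensities of RPS16, 14.7 to 30.4 over the arrays, lay around the limit for testing, which leaves its loading uncertain. Translation factors had a median of -0.14 over 30 genes (-0.34 and 0.05), with 9 below and 8 above 0 in both sets. Among them were EIF4E, the cap-binding protein, at -0.85 (-1.20 and -0.49 in sets 1 and 2) and EIF4G1, the scaffold that EIF4E binds, at -1.41 (-2.43 and -0.39 in sets 1 and 2) with a level of 8.62 on the cytoplasmic control array of set 1. EIF3A, the largest subunit of the eIF3 complex, had 0.40 (0.39 and 0.41 in sets 1 and 2), and EIF5A 0.51 (0.32 and 0.69 in sets 1 and 2). Mitochondrial ribosomal proteins had a median of -0.10 over 61 genes (-0.30 and 0.02), and the lowest mean was -1.18. By the smaller change, MRPL2 led the lower side at -0.88 (-1.04 and -0.72 in sets 1 and 2). MRPS30 led the higher side at 0.53 (0.59 and 0.47 in sets 1 and 2). A second MRPS30 probe set had a mean of the other sign.

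mRNAs with special leaders were described because RHA acts through leaders. Growth regulators known for long or structured 5′ leaders had a median of -0.09 over 23 genes (-0.53 in set 1 and 0.15 in set 2), which was 0.01 under median centring. Of these, 6 were below 0 in both sets and 3 above. ODC1, the first enzyme of polyamine synthesis, had -0.36 (-0.26 and -0.46 in sets 1 and 2), NRAS -0.34 (-0.43 and -0.25 in sets 1 and 2) and the osteoblast factor RUNX2 0.54 (0.70 and 0.37 in sets 1 and 2). ODC1 (probe set MmuSTS.4658.1.S1_at) had intensities of 2849.7 in cytoplasm and 2747 on polysomes in set 1, and 2341 and 2598 in set 2, under control siRNA. They were 3412 and 2745, and 3192 and 2576, under RHA siRNA. ODC1 thus differed little in size but in the same way in both sets. mRNAs known for upstream open reading frames had a median of -0.34 over 14 genes (-0.32 and -0.09), with 8 below and 3 above 0 in both sets. SLC35A4, whose leader encodes a conserved peptide, had -0.52 (-0.45 and -0.59 in sets 1 and 2), and IBTK, which has several upstream frames, 0.88 (1.07 and 0.70 in sets 1 and 2). ATF4 targets, the amino acid genes of the integrated stress response, had a median of -0.16 over 16 genes (-0.17 and -0.21). ASNS, which makes asparagine, had -0.39 (-0.44 and -0.33 in sets 1 and 2), and SLC7A11, the cystine importer, 0.67 (0.37 and 0.96 in sets 1 and 2).

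The list of AP-1 and immediate-early genes, to which JUND belongs, was split. The median over 26 genes was -0.13 (0.01 in set 1 and -0.08 in set 2), or 0.04 under quantile normalization, with 8 below 0 in both sets and 8 above. FOSL2, a Fos-family partner of Jun proteins, was the leading member. The intensities of FOSL2 (probe set MmuSTS.2660.1.S1_at) were 62.5 in cytoplasm and 102 on polysomes in set 1, and 60.0 and 125 in set 2, under control siRNA. The corresponding RHA siRNA arrays gave 103 and 96.8, and 146 and 94.2. Its loading was 0.71 and 1.06 under control siRNA and -0.10 and -0.63 under RHA siRNA, a change of -1.25 (SE 0.46). IER2 had -0.97 (-1.25 and -0.69 in sets 1 and 2). CCN2, a matrix-associated growth factor, had 0.58 (0.41 and 0.76 in sets 1 and 2) and the transcription factor KLF2 0.49 (0.30 and 0.69 in sets 1 and 2). KLF2 read 14.4 to 38.9 over the arrays, around the limit for testing, and its loading is therefore uncertain.

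Proteins known to work with RHA were split as well. The list of partners and RNA-binding proteins of translation had a median of -0.20 over 22 genes (-0.29 and 0.07), and -0.04 under quantile normalization. NXF1, the main mRNA export receptor, led it. Under control siRNA, NXF1 (probe set MmugDNA.39160.1.S1_at) read 79.5 in cytoplasm and 153 on polysomes in set 1, and 77.5 and 122 in set 2. Under RHA siRNA it read 126 and 74.4, and 165 and 136. The loading change of NXF1 was -1.32 (SE 0.56), with -1.70 and -0.94 in the sets. HNRNPU had -2.06 (-3.82 and -0.31 in sets 1 and 2) and was at 36.8 on the cytoplasmic control array of set 1 against 245 on the cytoplasmic RHA siRNA array. LARP7, which binds the 7SK RNA, had 0.44 (0.66 and 0.23 in sets 1 and 2). The 37 DExD/H-box helicases had a median of -0.22 (-0.60 and 0.07), with 13 below and 8 above 0 in both sets. After DHX9, DHX35 was lowest by the smaller change with -0.60 (-0.81 and -0.39 in sets 1 and 2), and DDX49 was highest with 0.49 (0.47 and 0.52 in sets 1 and 2). DDX49 read 12.6 to 46.0 over the arrays and was under the limit for testing in set 2, which leaves its loading uncertain.

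Oxidative phosphorylation genes lay mostly below 0. Of 52 nuclear genes of the respiratory chain and ATP synthase, 30 were below 0 in both sets and 6 above, which is 57.7% and 11.5% against 28.2% and 26.9% of all genes. The median was -0.26 (-0.30 in set 1 and -0.12 in set 2), and -0.22 and -0.16 under the scalings. After NDUFS8 came ATP5F1B, the catalytic subunit of ATP synthase. On the control siRNA arrays the intensity of ATP5F1B was 317 in cytoplasm and 1275 on polysomes in set 1, and 545 and 809.5 in set 2. On those of RHA siRNA it was 1061 and 491, and 1421 and 1176. Its loading change was -1.98 (SE 0.77), while a second ATP5F1B probe set had the other sign. UQCRB of complex III had 0.25 (0.25 and 0.26 in sets 1 and 2) and COX7B of complex IV 0.19 (0.29 and 0.09 in sets 1 and 2). In limma with the block 5 of the 52 had an unadjusted p under 0.05, all lower, a share of 9.6% against 3.2% of all genes. That count was 1 to 3 without an array of set 1 and 6 to 9 without one of set 2, and the median was -0.45 to -0.12.

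Glycolysis genes were spread widely. The median over 17 genes was -0.02 (-0.38 and 0.13) and lay above 0 under both scalings, but it was -0.70 among the brightest 25% of probe sets and -0.58 to -0.15 in fits with the block that left out 1 array. Of the 17, 8 were below 0 in both sets and 5 above, or 47.1% and 29.4% against 28.2% and 26.9% of all genes. In limma with the block 6 had an unadjusted p under 0.05, all lower, a share of 35.3% against 3.2% of all genes. GAPDH was one of them. GAPDH (probe set MmugDNA.34587.1.S1_s_at) was measured at 1139.9 in cytoplasm and 2468 on polysomes in set 1, and 641 and 881 in set 2, under control siRNA. With RHA siRNA the readings of GAPDH were 2182 and 1021, and 1073 and 823. The change in loading was -1.53 (SE 0.89), with -2.21 and -0.84 in the sets. The 3′ to 5′ difference of the GAPDH control probe sets moved by 2.64 in set 1 and 0.17 in set 2. ALDOA, the muscle-type aldolase, had -1.09 (-1.44 and -0.74 in sets 1 and 2). The lactate exporter SLC16A3 had 0.61 (0.81 and 0.40 in sets 1 and 2) and HK2, which phosphorylates glucose, 0.43 (0.46 and 0.39 in sets 1 and 2). The 2 further SLC16A3 probe sets had means of the other sign. The count of 6 was 1 to 3 without an array of set 1 and 5 to 7 without one of set 2.

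In protein quality control, 12 of 25 proteasome subunits were below 0 in both sets and 1 above, PSMA7 of the core particle with 0.38 (0.44 and 0.31 in sets 1 and 2). A second PSMA7 probe set had a mean of the other sign. The shares below and above 0 in both sets were 48% and 4%, against 28.2% and 26.9% of all genes. The median was -0.24 (-0.61 in set 1 and -0.05 in set 2), or -0.19 and -0.14 under the scalings. PSMC5, an ATPase of the regulatory particle, had -0.85 (-1.24 and -0.46 in sets 1 and 2) and PSMD8 -1.14 (-1.88 and -0.40 in sets 1 and 2). PSMD8 had intensities of 610.3 in cytoplasm and 1427 on polysomes in set 1, and 648 and 889 in set 2, under control siRNA. They were 1482 and 940.3, and 923 and 960.2, under RHA siRNA. The polysomal excess of PSMD8 under control siRNA was larger in set 1. The share of the proteasome list with lower loading at an unadjusted p under 0.05 in limma with the block was 16%, against 3.2% of all genes. In limma with the block 4 of 25 had an unadjusted p under 0.05, all lower, with 0 or 1 without an array of set 1 and 4 to 8 without one of set 2. Cytosolic chaperones had a median of -0.19 over 22 genes (-0.66 and 0.04), and -0.53 to 0.09 in fits with the block that left out 1 array, with HSP90AB1 at -1.53 (-2.66 and -0.41 in sets 1 and 2), DNAJC7 at -0.58 (-0.64 and -0.53 in sets 1 and 2) and DNAJA2 at 0.61 (0.49 and 0.73 in sets 1 and 2).

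Lists of the secretory pathway, the matrix and cholesterol synthesis had medians between -0.40 and 0.02. Translocon and signal peptide processing genes had a median of -0.21 over 22 genes (-0.40 and -0.01), with SSR3 at -0.48 (-0.45 and -0.52 in sets 1 and 2) and RPN2 at 0.35 (0.55 and 0.15 in sets 1 and 2). The 2 further RPN2 probe sets had means of the other sign. Unfolded protein response genes had -0.06 over 18 genes (0.03 and 0.00), or 0.04 under median centring. ATF6, the membrane-bound sensor, had -0.93 (-1.19 and -0.67 in sets 1 and 2) and WFS1 0.59 (0.74 and 0.44 in sets 1 and 2). A second WFS1 probe set had a mean of the other sign. Extracellular matrix genes and integrins had -0.40 over 24 genes, but -0.78 in set 1 and 0.11 in set 2, and 0.13 when the polysomal control of set 1 was left out of the fit without the block. ITGB8, an integrin that activates TGF-beta, was the leading gene of higher loading there. The intensities of ITGB8 (probe set MmugDNA.42148.1.S1_at) were 132 in cytoplasm and 159 on polysomes in set 1, and 116 and 118 in set 2, under control siRNA. The corresponding RHA siRNA arrays gave 49.1 and 106, and 46.1 and 90.3. Cytoplasmic ITGB8 was lower under RHA siRNA in both sets, and the loading change was 0.89 (SE 0.45). Cholesterol synthesis genes had 0.02 over 14 genes (0.04 and 0.10). SREBF2, their main transcription factor, had -0.42 (-0.42 and -0.42 in sets 1 and 2), with the same sign in its 3 further probe sets, and MVK -0.38 (-0.37 and -0.39 in sets 1 and 2).

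Cell cycle lists had medians on both sides of 0, and the difference between them was not tested. G1/S and replication genes had a median of -0.24 over 27 genes (-0.39 and -0.03), or 0.15 when the cytoplasmic RHA siRNA array of set 1 was left out of the fit without the block, with POLA2 of the primase complex at -0.69 (-0.95 and -0.43 in sets 1 and 2). CCNE2, cyclin E2, lay on the other side. Under control siRNA, CCNE2 (probe set MmuSTS.3320.1.S1_at) read 699 in cytoplasm and 688 on polysomes in set 1, and 238 and 202 in set 2. Under RHA siRNA it read 429.9 and 725, and 111 and 198. This is a loading change of 0.92 (SE 1.47). G2/M genes had a median of 0.13 over 22 genes (-0.07 and 0.26), with 3 below 0 in both sets and 8 above. NUF2 of the outer kinetochore had 0.87 (0.65 and 1.09 in sets 1 and 2) and AURKB, a kinase of the chromosomal passenger complex, -0.92 (-0.96 and -0.89 in sets 1 and 2). The median of the G2/M list was -0.15 to 0.30 in fits with the block that left out 1 array, so its sign rested on single arrays. Targets of p53 had -0.20 over 14 genes (-0.34 and -0.03), with CDKN1A, an inhibitor of cyclin-dependent kinases, at -0.76 (-0.58 and -0.94 in sets 1 and 2) and the cell death gene BAX at -0.68 (-0.62 and -0.75 in sets 1 and 2). Replication-dependent histones, whose mRNAs end in a stem-loop, had -0.04 over 19 genes (0.05 and 0.03), which was above 0 under both scalings.

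ZNF zinc-finger genes, mostly transcription factors, formed the largest list. Of 200, 67 were above 0 in both sets and 39 below, which is 33.5% and 19.5% against 26.9% and 28.2% of all genes. The median was 0.11 (-0.04 in set 1 and 0.18 in set 2), and 0.15 and 0.21 under the scalings. It was -0.10 to 0.25 in fits with the block that left out 1 array, and below 0 without the polysomal control of set 1 or without either cytoplasmic array of set 2. After ZNF548, ZNF654 had 0.89 (0.89 and 0.89 in sets 1 and 2), and ZNF836 led the lower side with -0.96 (-0.76 and -1.16 in sets 1 and 2). The loading of ZNF836 is uncertain, since it read 12.1 to 36.2, around the limit for testing. Interferon-stimulated genes had a median of -0.10 over 18 genes (0.01 and -0.06) and 0.00 under both scalings. IFI44 had -0.67 (-0.78 and -0.57 in sets 1 and 2) and IFIT2, which binds RNA and inhibits translation, 0.33 (0.47 and 0.18 in sets 1 and 2). The same limit applies to IFI44, which read 15.1 to 35.5.

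Kidney tubule markers had a median of -0.09 over 14 genes (-0.15 and -0.05), or 0.01 under median centring. The epithelial keratins KRT7 and KRT8 had -0.85 (-1.23 and -0.47 in sets 1 and 2) and -0.92 (-1.43 and -0.42 in sets 1 and 2), while EPCAM, an epithelial adhesion protein, had 0.46 (0.57 and 0.34 in sets 1 and 2). The 9 fibroblast markers had a median of 0.00 (0.25 and -0.03) and were spread between COL1A1 and LUM, a matrix proteoglycan, at 0.66 (1.08 and 0.24 in sets 1 and 2). Leukocyte markers, nuclear noncoding RNAs, snoRNA hosts and mitochondrial-genome transcripts had fewer than 5 tested genes.

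**Figure D5:**
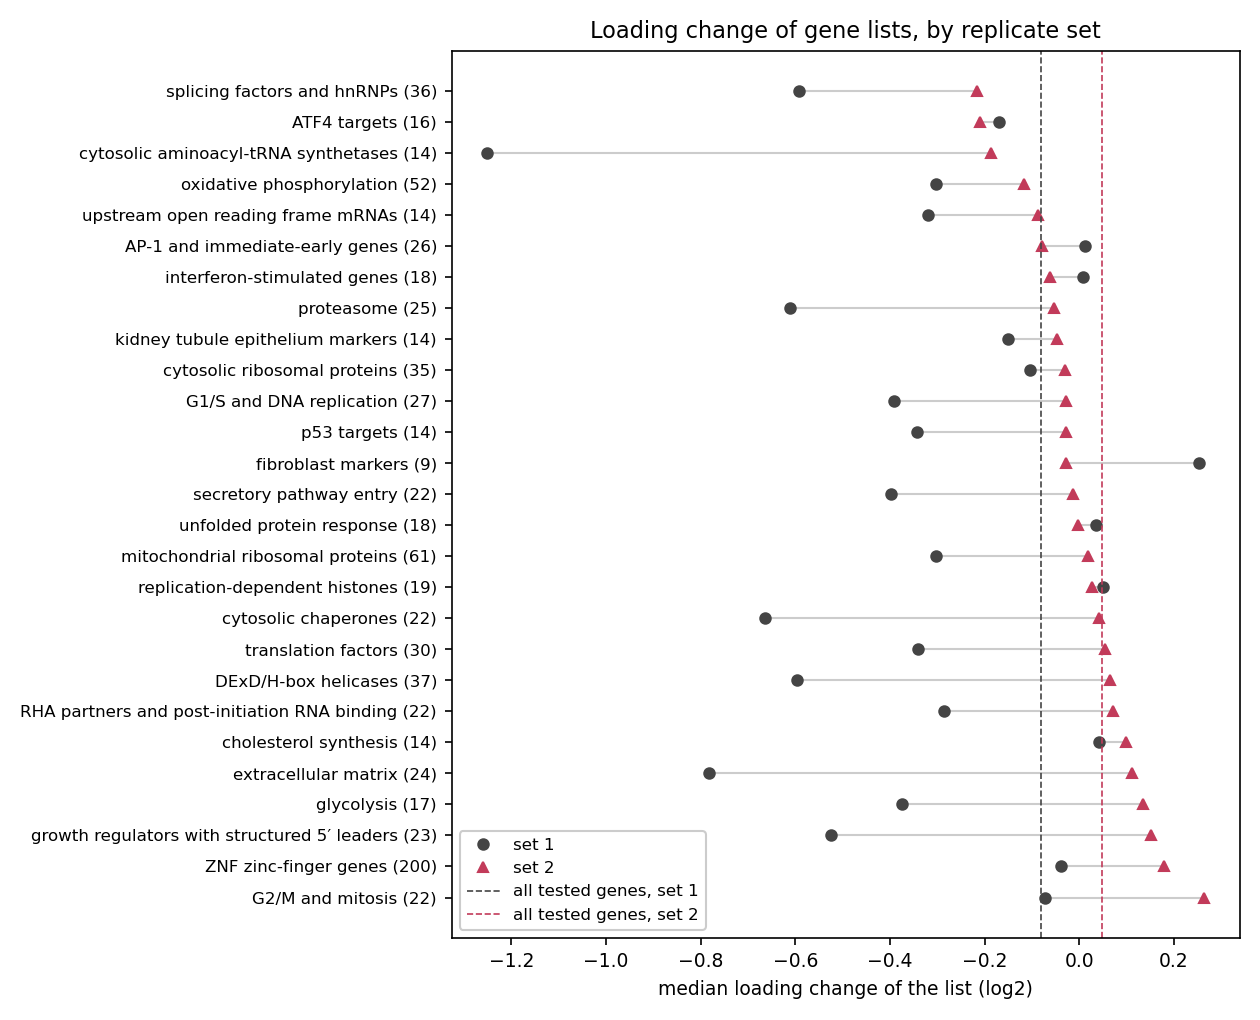
Median loading change (log2, x axis) of 27 gene lists, with the number of tested genes in brackets, in set 1 (circles) and set 2 (triangles). Dashed lines mark the medians of all tested genes, -0.08 in set 1 and 0.05 in set 2; aminoacyl-tRNA synthetases lie farthest below in set 1 and splicing factors in set 2.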

How the data were processed

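Arrays were Affymetrix rhesus macaque arrays, 1 sample each. The deposited tables hold 1 linear intensity per probe set, and per the submitters' processing notes GCOS and RMA were used, with no version or role given. They were taken as normalized and put on the log2 scale. Of 52865 probe sets, 24969 had 1 gene symbol in the platform annotation, 361 several and 27535 none, and genes are named from those with 1. The brightest 50% of 52766 non-control probe sets by mean log2 (limit 4.32, intensity 19.9) were tested two-sided in R 4.3.3 with lmFit and eBayes of limma 3.58.1, as 4 groups of 2 arrays in 1 fit. A probe set was called at a Benjamini-Hochberg adjusted p-value under 0.05. The estimates were checked on simulated data.

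Named genes were the 14 per direction with the largest smaller-of-sets change of 1 sign, at mean log2 of at least 5, with the brightest probe set per gene. DHX9, JUND and up to 2 members per direction of each list, ranked likewise, were added. The lists are those described with their medians in the results, plus leukocyte markers, nuclear noncoding RNAs, snoRNA hosts and mitochondrial-genome transcripts. Members and lists were chosen with earlier results of these data known. Replicate numbers come from the titles, and arrays of 1 number correlated more closely than arrays of 1 group, so the number was also fitted as a block. Alternatives were the block, quantile normalization, median centring, other filters, an offset of 16, array weights and leaving out each array. Arrays have no read depth, and their number limits the precision.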

Additional observations from a re-analysis of the deposited data

Results flagged for a closer look

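In 14 of the 28 named genes, the RHA siRNA effect had opposite signs in cytoplasm and on polysomes in both sets, and for each of them the difference between the fractions, which is the loading change, did not pass in limma (adjusted p = 1.00). For 10 of them cytoplasm was above and polysomes below control. Their mean loading changes were -2.54 for COL1A1, -1.78 for NDUFS8, -1.74 for UBA1, -1.71 for HADHB, -1.40 for LOC696958, -1.32 for CIC, -1.28 for EXOC3, -1.27 for SNX9, -1.26 for CARS2 and -1.22 for HUWE1. For the other 4 cytoplasm was below and polysomes above control, with 1.09 for TRMT11, 1.14 for SOCS4, 1.16 for ZNF548 and 1.22 for LOC700398. The genes had been chosen for a large loading change, which favours such opposite effects. Within a fraction, NDUFS8 had siRNA effects of 1.14 and 1.21 (log2, sets 1 and 2) in cytoplasm and of -0.79 and -0.43 on polysomes, and TRMT11 of -0.71 and -0.75 and of 0.55 and 0.17. Groups of 2 arrays are too small for a search for single outlying arrays.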

How the results depend on the processing

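Limma called 0 probe sets for the loading change under each setting run. It also called 0 for the control loading and the RHA siRNA loading under each setting for which their counts are reported. Their counts are not reported for the block with an array left out. The replicate block also called 0, with a smallest adjusted p of 0.967 for the loading change, and the closest approach was 0.0577 in limma with the block when the cytoplasmic control of set 2 was left out. The paired estimate, 1 double difference per set, is the same value as the mean reported, with DHX9 at -0.69 and JUND at -0.63, and it called 0 with 367 lower and 185 higher at an unadjusted p under 0.05. In fits without the block that left out 1 array, DHX9 ranged from -1.42 to 0.0432. It turned without the polysomal RHA siRNA array of set 1. ZNF548 ranged from -0.0736 to 2.40 and turned when the cytoplasmic control of set 2 was left out. A level difference between the sets enters such fits. Within sets 1 and 2 the loading changes were -0.98 and -0.40 for DHX9, and 1.11 and 1.22 for ZNF548. Any further cause was not tested. The 28 named genes otherwise kept their sign under each setting that measured them, with 15 of 28 measured among the brightest 25%. They had been chosen for a change of the same sign in both sets, which favours this. The block with all arrays, the paired estimate and the array weights leave each mean unchanged. Of 27 list medians, 3 changed sign under quantile normalization, 6 under median centring, 3 with no filter, 1 with an offset of 16, and 5 to 10 when 1 array was left out; 21 of the 27 turned in at least 1 of these left-out fits. Among the brightest 25%, 1 of 26 turned. An alternative chosen after seeing the data, the block with the cytoplasmic control of set 1 left out, turned 6 list medians. It turned 0 of the 28 genes, whose choice favours this. Array weights, fitted with the block, gave 729 lower and 293 higher at an unadjusted p under 0.05 in limma. The weight came out the same for both arrays of a group, so this setting could not set a single array apart. Intensities near or under the limit of 19.9 on at least 1 array leave the loading of a gene uncertain. This held for COL1A1, ZNF548, ZC3H18 (19.4), TMEM132A (16.5), LOC696958 (18.5) and EQTN (17.7), among others.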
